A study of Arabidopsis thaliana with 18 samples.

Results

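The 9 Arabidopsis genes followed here encode early cold regulators outside the CBF regulon, measured in developing seed coats and endosperms: *ZAT10*, *ZAT12*, *ZAT6*, *CZF1*, *RAV1*, *MYB15*, *HSFC1*, *CAMTA3* and *HOS1*. They were chosen by identifier, and all 9 were found among the 37861 nuclear genes kept from the count tables. WT (Col) and *myb107-2* mutant seeds were compared, *myb107-2* being a mutant in *MYB107*, a regulator of suberin genes of the outer seed coat. The groups were WT 6 h cold, WT 48 h cold and *myb107-2* 48 h cold, in which plants grown at 22 °C were moved to the cold at 11 d after pollination (DAP), WT 13 DAP, kept at 22 °C, and *myb107-2* 11 DAP and WT 11 DAP, dissected before any transfer. Each group had 3 libraries, 18 in all, and each library pooled seeds of several plants in which the embryo had been removed. The cold treatment is given as 13 °C in the labels, while the text of the study gives a lower temperature. Seeds at 13 DAP had the age of the 48 h cold seeds in days, whereas no library at 22 °C was taken 6 h after the 11 DAP collection. Cold and time of day therefore cannot be told apart in the 6 h comparison.

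In vegetative tissue, a fall in temperature induces within hours a first wave of transcription factors. The CBF proteins are the best known of these and activate genes such as *RD29A* and *COR15A* through the CRT/DRE element. Other factors are induced in parallel. ZAT10, ZAT12 and ZAT6 are C2H2 zinc-finger proteins with an EAR repressor motif that respond to cold, wounding, salt and oxidants. CZF1 is a CCCH zinc-finger protein of salt stress responses, RAV1 carries an AP2 and a B3 domain, and HSFC1 is the class C heat stress factor. CAMTA3 is a calmodulin-binding activator of *CBF2* and of several of these factors, MYB15 binds *CBF* promoters and lowers their expression, and HOS1 is a ubiquitin ligase that targets the CBF activator ICE1.

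The depth and identity of the libraries were checked first. Totals lay between 43.1 M and 84.0 M counts, and the floor of 3 counts used here was worth 0.0315 to 0.101 CPM, a unit in which counts are expressed relative to the TMM-scaled total of their library. *MYB107* (AT3G02940) had between 2.37 and 5.71 CPM in the *myb107-2* libraries, against 27.8 to 62.0 CPM in the WT libraries. The seed coat genes *BAN* and *TT10* and the endosperm gene *EPR1* were detected in every library, *TT12* did not exceed 0.581 CPM, and 6 embryo genes summed to at most 2.65 CPM, with *CUC2* at 0 throughout. Of the other endosperm genes, *ZOU* and *ALE1* were detected in every library and *MEA* was at 0 in some. *FIS2* was at 0 in all libraries of WT 6 h cold, WT 13 DAP and *myb107-2* 11 DAP, and *PHE1* did not exceed 0.199 CPM. WT 6 h cold replicate 1 detected the fewest genes (18658) and had the lowest mean correlation with its group (r = 0.938), and in WT 13 DAP replicate 1 ribosomal RNA units held 47.0% of the counts, against 6.00% to 16.5% in the other libraries. For the genes followed here, results that changed without these libraries are given with both values. For the other genes named below, values without these libraries are not given. Whether the 3 replicates of a group came from separate plantings is not given in the sources used here, so that p-values measure only the spread between these samples.

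The sequences before 5 of the genes are shown here because *ZAT10*, *ZAT12* and *CZF1* moved together at 48 h cold while *ZAT6* and *RAV1* each followed a pattern of their own. Each is the 250 bases before the gene start of the RefSeq annotation of TAIR10.1, written 5′ to 3′ on the strand of the gene. Capitals mark matches, on both strands, to the CRT/DRE core CCGAC, the CAMTA element CGCGTT, the evening element AAAATATCT, the ABRE core ACGTG and the W-box core TTGAC.
ZAT10 (AT1G27730, chr1:9649324-9649573, minus strand): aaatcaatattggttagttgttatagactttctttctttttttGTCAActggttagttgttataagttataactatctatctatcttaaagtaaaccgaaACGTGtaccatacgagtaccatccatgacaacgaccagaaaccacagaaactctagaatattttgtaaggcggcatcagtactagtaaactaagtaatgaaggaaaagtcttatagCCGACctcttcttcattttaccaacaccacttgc
ZAT12 (AT5G59820, chr5:24102564-24102813, plus strand): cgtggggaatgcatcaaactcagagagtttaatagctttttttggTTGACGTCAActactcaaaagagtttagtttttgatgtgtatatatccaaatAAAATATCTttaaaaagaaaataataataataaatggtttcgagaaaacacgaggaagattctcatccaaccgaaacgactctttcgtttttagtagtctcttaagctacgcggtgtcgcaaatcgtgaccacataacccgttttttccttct
CZF1 (AT2G40140, chr2:16771747-16771996, plus strand): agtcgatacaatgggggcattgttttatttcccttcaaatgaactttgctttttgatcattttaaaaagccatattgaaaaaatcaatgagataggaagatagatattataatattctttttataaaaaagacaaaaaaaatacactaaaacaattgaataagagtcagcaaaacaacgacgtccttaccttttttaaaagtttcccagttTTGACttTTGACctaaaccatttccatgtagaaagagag
ZAT6 (AT5G04340, chr5:1217363-1217612, minus strand): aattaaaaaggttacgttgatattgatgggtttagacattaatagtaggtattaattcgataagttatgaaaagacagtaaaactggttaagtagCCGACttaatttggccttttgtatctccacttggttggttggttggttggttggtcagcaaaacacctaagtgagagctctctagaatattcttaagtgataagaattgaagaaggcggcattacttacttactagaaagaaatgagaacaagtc
RAV1 (AT1G13260, chr1:4541918-4542167, plus strand): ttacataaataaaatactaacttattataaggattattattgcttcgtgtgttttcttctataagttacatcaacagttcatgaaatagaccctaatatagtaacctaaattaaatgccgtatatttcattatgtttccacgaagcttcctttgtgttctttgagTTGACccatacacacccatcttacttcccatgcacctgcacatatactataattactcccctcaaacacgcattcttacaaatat

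The CRT/DRE core, bound by CBF proteins, was found in 4 of the 9 windows (*ZAT10*, *ZAT6*, *MYB15* and *HOS1*), and 11.97% of 27443 protein-coding promoters of the same length hold it. The W-box core, bound by WRKY factors, was found in 6 of 9, with 44.9% of all promoters holding it. In *ZAT12*, 2 W-box cores lie head to head from 205 to 196 bases before the start, and in *CZF1* another pair begins 39 and 32 bases before it. The evening element of clock-regulated genes occurred in *ZAT12* alone among the 9, 153 bases before the start, and in 2.36% of all promoters. The ABRE core was found in 3 of 9 (22.9% of all promoters). CGCGTT, the only form of the CAMTA element that was searched, was found in 0 of 9 (2.59% of all promoters). These matches are a description of the letters in this window.

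The 3 *ZAT* genes and *RAV1* have a single exon of 981 to 1803 bases, *CZF1*, *MYB15* and *HSFC1* have 2 exons, *HOS1* 10 and *CAMTA3* 14. None of the 50-base windows in the exons of the 9 genes was found elsewhere in the genome, so that reads of the length used here map to 1 place. *HSFC1* (chromosome 3, 8941066 to 8942874) is overlapped over 1808 bases by the antisense RNA gene AT3G24518, and *CAMTA3* shares 69 bases with a gene on the other strand. The library kit keeps the strand, but whether the counting used it is not given in the sources used here, and the *HSFC1* counts are uncertain for this reason.

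The 9 genes differed widely in level. Per kilobase of exon, the mean level in WT 48 h cold was 583 CPM per kb for *ZAT12* and 514 CPM per kb for *ZAT10*, followed by 189 CPM per kb for *ZAT6* and 102 CPM per kb for *CZF1*. On the same scale *RAV1*, *CAMTA3*, *MYB15*, *HOS1* and *HSFC1* had 7.55, 5.77, 3.56, 2.84 and 1.48 CPM per kb. At WT 11 DAP *ZAT12* (241 CPM per kb) and *ZAT10* (232 CPM per kb) were already the highest, and *MYB15* was the lowest at 0.619 CPM per kb. Thus the zinc-finger genes were abundant in these dissected tissues before any cold, and the part of handling in these levels was not tested.

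**Figure D1:**
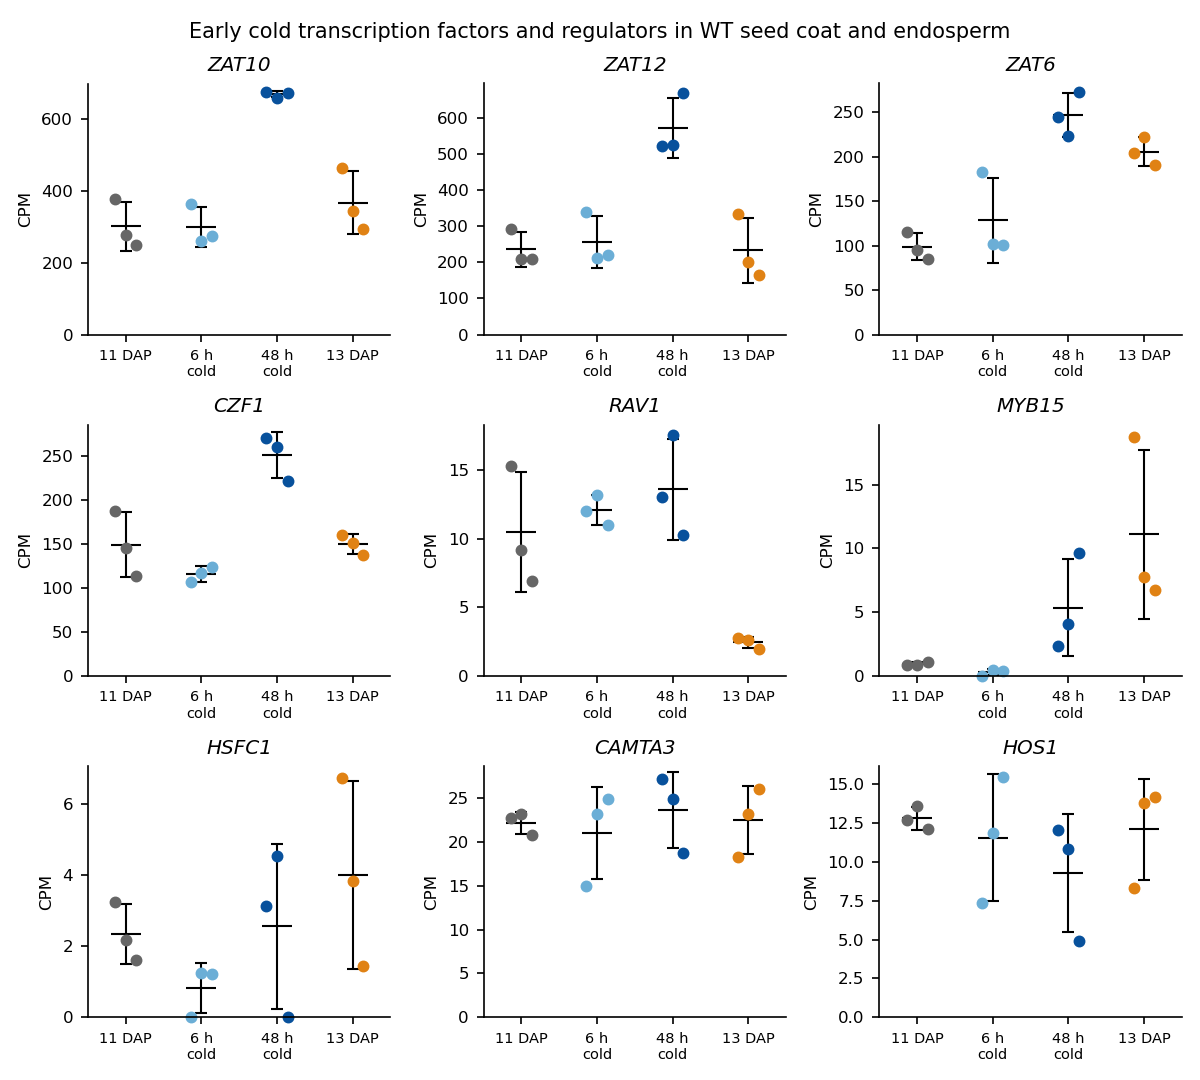
CPM of the 9 genes in WT, with 1 point per library and bars for the mean and SD of 3 libraries, at 11 DAP, after 6 h and 48 h of cold, and at 13 DAP. *ZAT10*, *ZAT12* and *CZF1* are highest at 48 h cold, *ZAT6* is high at 48 h cold and at 13 DAP, *RAV1* is low at 13 DAP, and *MYB15* is highest at 13 DAP.

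After 6 h of cold, 0 of the 9 genes differed from 11 DAP in edgeR's quasi-likelihood test, in which a call required both an adjusted p no larger than 0.05 (Benjamini-Hochberg, over 26245 genes) and a log2 change of 1 or more in either direction, and 0 had an unadjusted p under 0.05. DESeq2 also called 0 of them. Over all genes, 1.08% were called, 0.423% higher and 0.659% lower. *ZAT10* had 365, 261 and 275 CPM at 6 h cold, against 379, 277 and 249 CPM at 11 DAP, a log2 fold change of -0.02 (95% interval -0.47 to 0.43). *ZAT12* had 340.3, 212 and 219.6 CPM at 6 h cold, against 291, 209 and 208 CPM at 11 DAP, a log2 fold change of 0.11 (-0.46 to 0.68). The libraries of the groups overlapped for both genes, and the intervals do not include a doubling of either.

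*ZAT6* had 183, 102 and 100.2 CPM at 6 h cold, against 115, 94.9 and 85.6 CPM at 11 DAP, and its log2 fold change of 0.36 became 0.04 without WT 6 h cold replicate 1 and WT 13 DAP replicate 1. *CZF1* had 107, 117 and 124 CPM at 6 h cold, against 188, 145 and 114 CPM at 11 DAP (log2 fold change -0.38, 95% interval -0.76 to 0.00). *MYB15* had 0, 0.475 and 0.409 CPM at 6 h cold, against 0.856, 0.840 and 1.10 CPM at 11 DAP. Its groups did not overlap, but the difference of -1.62 on the log2 scale did not pass the test (adjusted p = 0.35, edgeR).

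The CBF genes and their targets, taken as a list of 10 genes, were in a different state in the same libraries. In the list, 3 genes rose at 6 h cold and 0 fell, and the median log2 fold change was 3.40, against -0.01 over all genes. *COR15B*, *KIN1* and *GOLS3* were at 0 in all 3 of the 11 DAP libraries, and *COR15A* in 2 of 3. The size of their changes, and with it the median, therefore rests on levels at the floor. *RD29A*, encoding a desiccation-related protein, had 34.7, 26.0 and 37.5 CPM at 6 h cold, against 3.40, 2.89 and 2.57 CPM at 11 DAP (log2 fold change 3.46 ± 0.25 SE, adjusted p = 1.9e-05, edgeR). *CBF3* had 2.72, 2.80 and 5.68 CPM at 6 h cold, against 0.370, 0.347 and 0.376 CPM at 11 DAP (3.34 ± 0.77, adjusted p = 0.04, edgeR). *COR15B*, encoding a chloroplast protein that protects membranes in the cold, averaged 3.29 CPM at 6 h cold and was at 0 in the 11 DAP libraries. With each 0 set to the floor of 3 counts per library, it was 85.7-fold higher at 6 h cold. *CBF1* (log2 fold change 0.94, adjusted p = 0.19) and *CBF2* (0.04, adjusted p = 1) did not pass the test in edgeR. *CBF1* and *CBF2* share 2.48% and 3.95% of their 50-base windows with other places in the genome.

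Clock genes differed in this comparison as well. Of 9 clock genes, 4 were higher and 0 lower at 6 h cold, with *PRR5* at 10.2, 25.8 and 25.6 CPM at 6 h cold, against 1.92, 1.92 and 1.24 CPM at 11 DAP (log2 fold change 3.59 ± 0.34, adjusted p = 0.00017, edgeR). *ELF4* and *LUX*, of the evening complex, were higher by 3.75 and 1.34 on the log2 scale. The part of the time of day in the 6 h values was not tested.

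At 48 h of cold, 3 of the 9 genes, all zinc-finger genes of the ZAT group, were higher than at 11 DAP and 0 were lower, where 4.66% of all genes were called, 2.38% higher and 2.29% lower. *ZAT10* had 675, 660.1 and 674 CPM at 48 h cold, against 379, 277 and 249 CPM at 11 DAP, a log2 fold change of 1.13 ± 0.21 (SE, adjusted p = 0.0046, edgeR). *ZAT12* had 522, 524 and 669 CPM at 48 h cold, against 291, 209 and 208 CPM at 11 DAP (1.26 ± 0.27, adjusted p = 0.011, edgeR). *ZAT6* had 245, 223 and 273 CPM at 48 h cold, against 115, 94.9 and 85.6 CPM at 11 DAP (1.31 ± 0.22, adjusted p = 0.0024, edgeR). All 48 h cold libraries lay above all 11 DAP libraries for each of these genes. The *ZAT12* call was lost without WT 11 DAP replicate 2 (adjusted p = 0.053, edgeR) or replicate 3 (0.052).

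*CZF1* had 271, 261 and 221 CPM at 48 h cold, against 188, 145 and 114 CPM at 11 DAP, with a log2 fold change of 0.74 ± 0.18 (adjusted p = 0.021, edgeR) that lay under the fold change minimum. *MYB15*, the CBF repressor, had 2.37, 4.10 and 9.61 CPM at 48 h cold, against 0.856, 0.840 and 1.10 CPM at 11 DAP. Its groups did not overlap, and its log2 fold change of 2.50 ± 0.74 narrowly missed the test (adjusted p = 0.056, edgeR). Without WT 6 h cold replicate 1 it passed (adjusted p = 0.0065, edgeR), as it did without WT 48 h cold replicate 1 (0.044), with edgeR's newer estimation (0.016), with DESeq2 (0.0091) and with all 18 libraries in the fit (0.019). Without WT 48 h cold replicate 3, the library with the highest level, the log2 fold change was 1.79 (adjusted p = 0.23, edgeR), and without any one of the 11 DAP libraries or with the replicate block it did not pass either (0.12 to 0.17). Leaving out each of the 12 WT libraries in turn gave a call in only 2 of 12 fits. *RAV1* had 13.0, 17.5 and 10.3 CPM at 48 h cold, against 15.3, 9.19 and 6.95 CPM at 11 DAP, and the groups overlapped.

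**Figure D2:**
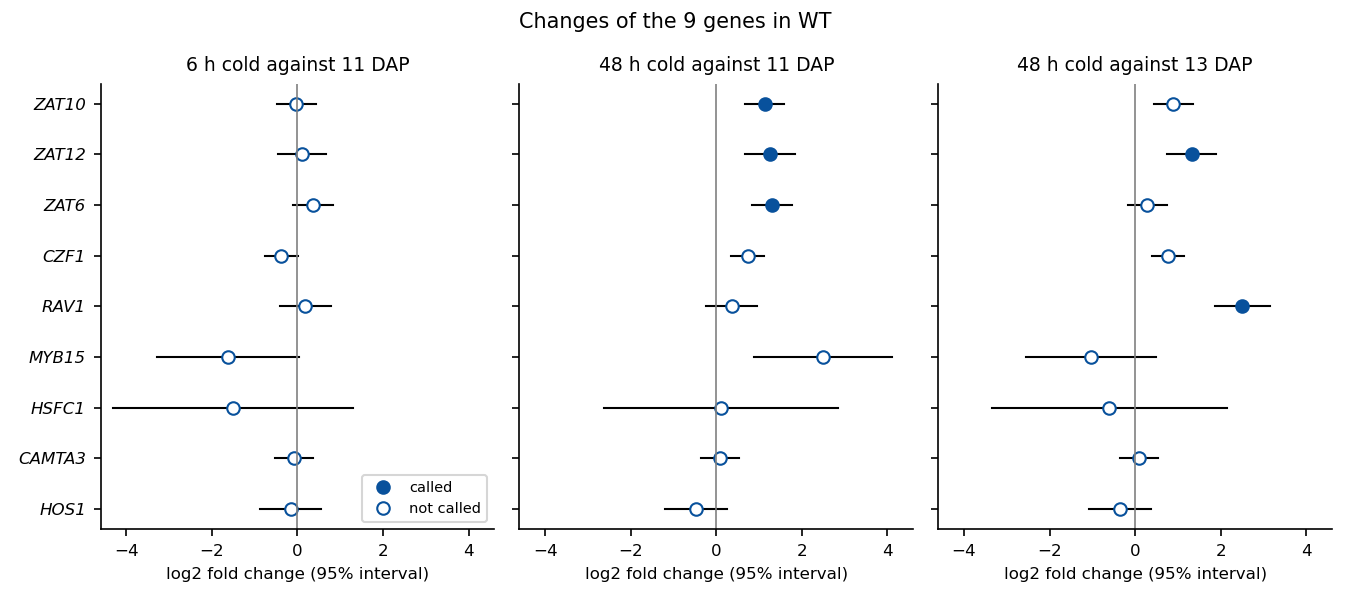
Log2 fold changes of the 9 genes in WT with 95% intervals from edgeR's quasi-likelihood fit, for 6 h cold against 11 DAP, 48 h cold against 11 DAP and 48 h cold against 13 DAP. Filled points were called, which holds for 0 genes at 6 h, for *ZAT10*, *ZAT12* and *ZAT6* at 48 h against 11 DAP, and for *ZAT12* and *RAV1* at 48 h against 13 DAP.

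The comparison with 13 DAP, in which seeds of both groups had the same age in days, separated the genes. The study states that cold slows seed development, so that the groups may differ in stage, and the part of stage was not tested. Of the 9, 2 were higher at 48 h cold and 0 were lower, where 6.65% of all genes were called, 3.51% higher and 3.15% lower. *ZAT12* had 522, 524 and 669 CPM at 48 h cold, against 334, 201 and 164 CPM at 13 DAP (log2 fold change 1.32 ± 0.27, adjusted p = 0.006, edgeR). *RAV1* had 13.0, 17.5 and 10.3 CPM at 48 h cold, against 2.75, 2.62 and 1.99 CPM at 13 DAP (2.50 ± 0.30, adjusted p = 0.00018, edgeR). These libraries did not overlap.

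*ZAT10* had 675, 660.1 and 674 CPM at 48 h cold, against 465, 344 and 294 CPM at 13 DAP (log2 fold change 0.89 ± 0.21, adjusted p = 0.014, edgeR). This was under the fold change minimum and reached 1.07 without WT 13 DAP replicate 1, the library rich in ribosomal RNA, where *ZAT10* was called. *CZF1* had 271, 261 and 221 CPM at 48 h cold, against 161, 152 and 138 CPM at 13 DAP (0.77 ± 0.18, adjusted p = 0.013, edgeR), also with no overlap and under the minimum.

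*ZAT6* and *MYB15* stood differently. *ZAT6* had 245, 223 and 273 CPM at 48 h cold, against 204, 223 and 190.3 CPM at 13 DAP, and the log2 fold change of 0.29 (95% interval -0.17 to 0.75) did not pass the test (adjusted p = 0.46, edgeR). *MYB15* had 2.37, 4.10 and 9.61 CPM at 48 h cold, against 18.8, 7.78 and 6.75 CPM at 13 DAP, where the groups overlapped (-1.03, 95% interval -2.55 to 0.48).

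The groups kept at 22 °C were compared next. At 13 DAP against 11 DAP, 3 of the 9 genes were called, 2 higher and 1 lower, with 9.01% of all genes called, 4.27% higher and 4.74% lower. *ZAT6* was higher at 13 DAP by 1.02 ± 0.22 on the log2 scale (adjusted p = 0.0051, edgeR), which fell below the minimum without WT 11 DAP replicate 3 (0.92) or, by a small margin, WT 13 DAP replicate 2. *MYB15* was higher by 3.53 ± 0.77 (adjusted p = 0.0064), and by 2.94 without WT 13 DAP replicate 1. *RAV1*, whose overexpression retards growth and flowering, had 2.75, 2.62 and 1.99 CPM at 13 DAP, against 15.3, 9.19 and 6.95 CPM at 11 DAP, and fell by 2.15 on the log2 scale (adjusted p = 0.00021, edgeR). The WT 48 h cold libraries of *RAV1* lay between 10.3 and 17.5 CPM, and the *myb107-2* 48 h cold libraries between 7.26 and 8.53 CPM. *ZAT10*, *ZAT12* and *CZF1* differed by 0.24, -0.06 and -0.03 at 13 DAP against 11 DAP, and none passed the test. In the same comparison 4 of 5 seed coat markers were lower and 0 higher, with *BAN* at -2.45 and *MUM2* at -2.22 on the log2 scale. Of 9 clock genes 3 were higher and 2 lower, and *LHY* averaged 7.99 CPM at 13 DAP and 71.7 CPM at 11 DAP. The part of age, tissue makeup and hour of collection in the values of *ZAT6*, *MYB15* and *RAV1* was not tested.

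Within the cold treatment, 4 of the 9 genes were higher at 48 h than at 6 h and 0 were lower, where 3.35% of all genes were called, 2.22% higher and 1.14% lower. The log2 fold changes were 1.15 ± 0.21 for *ZAT10* (adjusted p = 0.0057, edgeR), 1.15 ± 0.27 for *ZAT12* (0.023), 1.11 ± 0.18 for *CZF1* (0.0027) and 4.12 ± 0.82 for *MYB15* (0.0096), which was 3.40 without WT 48 h cold replicate 3. *ZAT12* was no longer called without WT 6 h cold replicate 2 (adjusted p = 0.097, edgeR), replicate 3 (0.094) or WT 48 h cold replicate 3 (0.089). *ZAT6*, with 0.94 ± 0.22, was under the minimum and was called without WT 6 h cold replicate 1 (1.28). In this comparison *CBF3* and *RD29A* ran the other way, with values of -2.82 (adjusted p = 0.045, edgeR) and -2.98 (0.00017), and *CBF2* was higher at 48 h by 1.42 (0.017).

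At 6 h cold against 13 DAP, 1 of the 9 genes was higher and 1 lower, where 9.97% of all genes were called, 4.64% higher and 5.33% lower. *RAV1* was higher at 6 h cold by 2.33 ± 0.30 (adjusted p = 0.00011, edgeR) and *MYB15* was lower (-5.15 ± 0.85, adjusted p = 0.00079). The value of *MYB15* was -4.55 without WT 13 DAP replicate 1 and -4.00 without both WT 6 h cold replicate 1 and WT 13 DAP replicate 1. Without these libraries *ZAT6* was also called (adjusted p = 0.0016, edgeR), while its value with them was -0.66 (adjusted p = 0.053).

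The order of the group means in WT was thus 48 h cold over 13 DAP, 11 DAP and 6 h cold for *ZAT10*, with the last 3 not separated by the tests. The *ZAT10* difference between 48 h cold and 13 DAP lay under the fold change minimum. For *ZAT12* it was 48 h cold over 6 h cold, 11 DAP and 13 DAP, the last 3 again not separated. For *ZAT6*, 48 h cold and 13 DAP led without a called difference, over 6 h cold and 11 DAP, which did not differ beyond their spread. For *RAV1*, 48 h cold, 6 h cold and 11 DAP were not separated and 13 DAP was the lowest. For *MYB15*, 13 DAP and 48 h cold were not separated, and 11 DAP and 6 h cold were the lowest, with 48 h cold and 11 DAP narrowly missing the test.

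The remaining genes gave no call. *CAMTA3* ranged from 15.0 to 27.3 CPM over the 18 libraries, and the 95% intervals of its 6 comparisons in WT ran from -0.53 to 0.61 on the log2 scale. *HOS1* ranged from 4.94 to 15.5 CPM. All 48 h cold libraries of *HOS1* (12.07, 10.9 and 4.94 CPM) lay below the 11 DAP libraries (12.7, 13.6 and 12.14 CPM), with a log2 fold change of -0.48 ± 0.33 that did not pass the test (adjusted p = 0.44, edgeR).

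*HSFC1* was low and was listed at 0 in 3 libraries of 3 groups. It had 0, 1.25 and 1.23 CPM at 6 h cold, 3.14, 4.55 and 0 CPM at 48 h cold and 6.74, 3.84 and 1.46 CPM at 13 DAP, against 3.25, 2.17 and 1.61 CPM at 11 DAP. In *myb107-2* it had 3.12, 1.83 and 3.74 CPM at 48 h cold, against 1.81, 0.700 and 0 CPM at 11 DAP. The antisense gene AT3G24518 had 257 counts in the *myb107-2* 11 DAP library in which *HSFC1* had 0 counts, and 0 counts in the other 2 such libraries. The 95% interval at 48 h cold against 11 DAP in WT ran from -2.61 to 2.85, so that changes of 4-fold in either direction were not detectable.

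The relatives of the ZAT genes, 8 other C2H2 zinc-finger genes, were compared as a group. At 48 h cold against 13 DAP, 3 were higher and 0 lower, and the median log2 fold change was 0.10, against 0 over all genes. *ZAT8* had 52.0, 59.3 and 78.2 CPM at 48 h cold, against 26.9, 19.4 and 14.2 CPM at 13 DAP (1.67 ± 0.28, adjusted p = 0.0018, edgeR). *ZAT7* and *AZF2* were higher by 1.45 (adjusted p = 0.0064) and 1.00 (0.0057). At 6 h cold against 11 DAP, 0 of the 8 were called by edgeR and 0 had an unadjusted p under 0.05. At 48 h cold against 11 DAP 2 of 8 were higher and 0 lower, with all 8 values above 0.

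**Figure D3:**
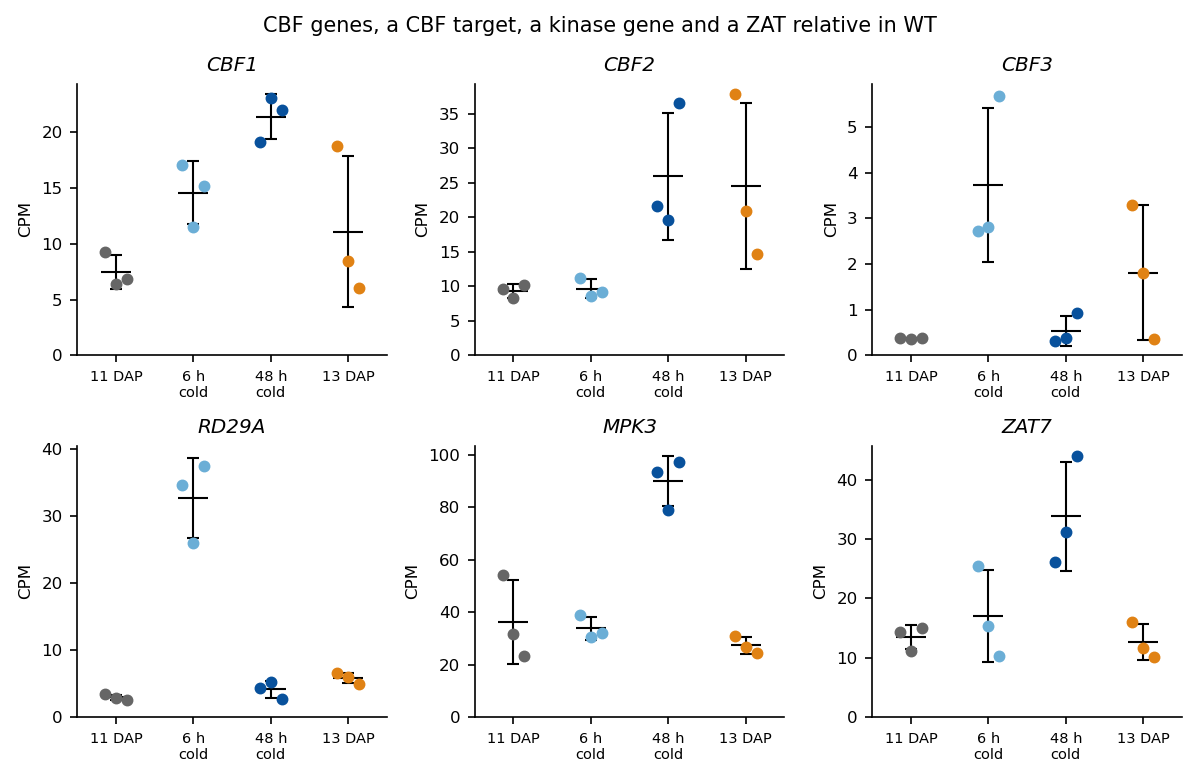
CPM of the 3 *CBF* genes, the CBF target *RD29A*, the kinase gene *MPK3* and the ZAT relative *ZAT7* in WT, with 1 point per library and bars for the mean and SD of 3 libraries. *CBF3* and *RD29A* are highest at 6 h cold, whereas *MPK3*, *ZAT7* and *CBF1* are highest at 48 h cold.

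A list of 15 other early stress factors and paralogs of the 9 genes gave 7 higher and 0 lower genes at 48 h cold against 13 DAP, with a median of 1.09 (0 over all genes), and 0 called genes in edgeR at 6 h cold against 11 DAP, where 4 had an unadjusted p under 0.05. *SZF1*, the CCCH zinc-finger paralog of *CZF1*, had 472, 434 and 438 CPM at 48 h cold, against 198, 189.6 and 168 CPM at 13 DAP (1.30 ± 0.18, adjusted p = 0.00055, edgeR). *MYB77* and *ERF5* were higher by 1.40 and 1.94. The *RAV1* paralogs *TEM1* and *TEM2*, named after their values were seen, were also higher at 48 h cold against 13 DAP, by 1.39 and 1.60, while their values at 13 DAP against 11 DAP were 0.58 and -0.13 (adjusted p = 0.24 and 0.92, edgeR).

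Of 10 regulators upstream of the CBF genes, 2 were higher and 1 lower at 48 h cold against 13 DAP, with a median of 0.27. *MPK3*, a stress-activated kinase that phosphorylates ICE1, had 93.5, 79.1 and 97.4 CPM at 48 h cold, against 31.1, 26.7 and 24.5 CPM at 13 DAP (1.74 ± 0.25, adjusted p = 0.00063, edgeR). *ICE1* was higher by 1.00 (adjusted p = 0.00036), and *OST1*, a kinase of abscisic acid signalling, was lower (-2.06, adjusted p = 0.035, edgeR). *OST1* averaged 12.4 CPM at 48 h cold, and its 13 DAP libraries had 9.66, 43.1 and 104.3 CPM. The lowest of these, WT 13 DAP replicate 1, lay below all 48 h cold libraries, so that the groups overlapped. At 6 h cold 0 of the 10 were called by edgeR, and 1 had an unadjusted p under 0.05. Of the CBF genes and targets, 1 was higher and 2 were lower at 48 h cold against 13 DAP (median -0.18). *KIN1* and *KIN2*, which encode small hydrophilic cold-induced proteins, were the lower ones, with *KIN2* at 3.84, 10.06 and 58.0 CPM at 48 h cold, against 1108, 939 and 816 CPM at 13 DAP.

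Other gene groups moved in the same comparisons. Of 8 touch and wound genes, 6 were higher and 0 lower at 48 h cold against 6 h cold, and their summed level was 852 to 1006 CPM at 48 h cold, against 414 to 497 CPM at 6 h cold. At 48 h cold against 13 DAP 2 were higher (*TCH4* and *TCH3*) and 1 lower (*JAZ7*), and at 13 DAP and 11 DAP the sums were 574 to 645 and 576 to 643 CPM. At 6 h cold against 11 DAP 0 of the 8 values lay above 0, and 1 gene was lower and 0 were higher. It was *TCH4*, a cell wall enzyme gene induced by touch (-1.30, adjusted p = 0.0039, edgeR). Of the 9 clock genes, 3 were higher and 0 lower at 48 h cold against 13 DAP. *LHY*, a morning clock factor, had 88.1, 101 and 86.3 CPM at 48 h cold, against 11.6, 7.25 and 5.10 CPM at 13 DAP, and *CCA1* differed by 3.20 on the log2 scale. The part of handling and of the clock in the values of the 9 genes was not tested.

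The tissue markers differed too. The 5 seed coat markers summed to 851 to 1628 CPM at 48 h cold, 712 to 1285 CPM at 13 DAP and 2373 to 2432 CPM at 11 DAP, and 2 (*BAN* and *MUM2*) were higher at 48 h cold than at 13 DAP. Most of this sum was *TT10*, an oxidase of flavonoid polymers, which averaged 1009 CPM at 48 h cold, 940.2 CPM at 13 DAP and 1864 CPM at 11 DAP. The 6 endosperm markers summed to 13887 to 21981 CPM at 48 h cold, 26541 to 30584 CPM at 13 DAP and 13320 to 18200 CPM at 11 DAP. Nearly all of this sum was 1 gene, *EPR1*, which averaged 18539 CPM at 48 h cold and 28917 CPM at 13 DAP. The other markers ran the other way, with 5 of the 6 values at 48 h cold against 13 DAP above 0, of which *ZOU* and *ALE1* were called higher. Among these 5, *FIS2* and *PHE1* averaged only 0.823 and 0.0664 CPM at 48 h cold. Both were at 0 in all 13 DAP libraries, so that the size of their changes is not measured. In such mixed tissue, fewer cells of a type and less RNA per cell cannot be told apart, and the part of tissue makeup was not tested.

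The *myb107-2* mutant was compared with WT for the 9 genes. At 11 DAP 1 gene was lower and 0 were higher, where 0.683% of all genes were called, 0.15% higher and 0.533% lower. At 48 h cold again 1 was lower and 0 higher, with 1.46% of all genes called, 0.456% higher and 1.01% lower. Both times the gene was *ZAT6*. It had 39.2, 49.9 and 46.4 CPM in *myb107-2* at 11 DAP, against 115, 94.9 and 85.6 CPM in WT (log2 fold change -1.14 ± 0.15, adjusted p = 0.0014, edgeR). At 48 h cold it had 115, 136 and 103 CPM in *myb107-2*, against 245, 223 and 273 CPM in WT (-1.08 ± 0.15, adjusted p = 0.00091, edgeR). No mutant library overlapped with WT at either time. Without *myb107-2* 48 h cold replicate 3 the value at 48 h was -0.98, under the fold change minimum, with an adjusted p of 0.0078 in edgeR. Of the 5 seed coat markers, 2 were also lower in *myb107-2* at 11 DAP and 0 higher. *MUM4*, a mucilage gene, averaged 105 CPM in *myb107-2* and 236 CPM in WT (-1.18, adjusted p = 0.0022, edgeR), and *MUM2* averaged 23.3 CPM in *myb107-2* and 46.1 CPM in WT (adjusted p = 0.008). Of the same 5 markers, 0 were called by edgeR at 48 h cold and 2 had an unadjusted p under 0.05. The part of the seed coat in the *ZAT6* values was not tested.

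*ZAT6* was also higher at 48 h cold than at 11 DAP in the mutant, where, with no *myb107-2* group at 13 DAP, cold and age cannot be told apart. At 48 h cold against 11 DAP in *myb107-2*, 2 of the 9 genes were higher and 0 lower, where 6.96% of all genes were called, 3.51% higher and 3.45% lower. These were *ZAT6* (1.38 ± 0.15, adjusted p = 2.5e-05, edgeR) and *MYB15*, which had 5.45, 6.85 and 3.71 CPM at 48 h cold, against 0.671, 0.828 and 1.13 CPM at 11 DAP (2.60 ± 0.45, adjusted p = 0.0011, edgeR). *ZAT10* had 563, 621 and 432 CPM at 48 h cold, against 252, 306 and 287 CPM at 11 DAP (0.93 ± 0.17, adjusted p = 0.0017, edgeR), and was called without *myb107-2* 48 h cold replicate 3 (1.07). *ZAT12* had 361, 445 and 308 CPM at 48 h cold, against 189, 244 and 247 CPM at 11 DAP (0.70 ± 0.18, adjusted p = 0.015, edgeR).

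**Figure D4:**
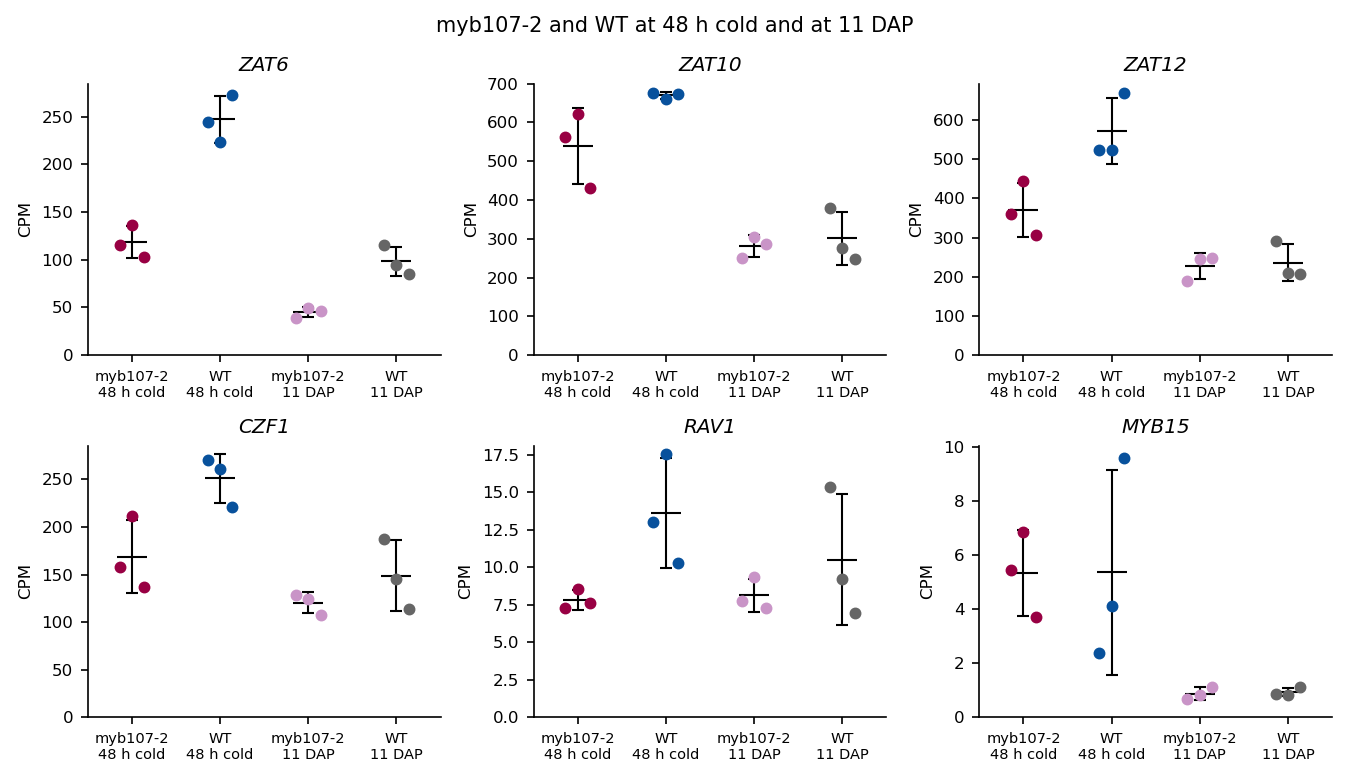
CPM of 6 of the genes in *myb107-2* and WT at 48 h cold and at 11 DAP, with 1 point per library and bars for the mean and SD of 3 libraries. *ZAT6* is lower in *myb107-2* than in WT at both times, and *ZAT10*, *ZAT12*, *CZF1* and *RAV1* lie below WT at 48 h cold without passing the test.

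The other zinc-finger genes lay below WT at 48 h cold without a call. *ZAT12* had 361, 445 and 308 CPM in *myb107-2*, against 522, 524 and 669 CPM in WT (log2 fold change -0.64, 95% interval -1.02 to -0.25, adjusted p = 0.093, edgeR). *CZF1* had 158, 211 and 137 CPM in *myb107-2*, against 271, 261 and 221 CPM in WT (-0.59, adjusted p = 0.16). *ZAT10* (-0.33, adjusted p = 0.47) and *RAV1* (-0.82, adjusted p = 0.15) likewise did not overlap with WT in edgeR's scaled counts and were not called. The share of all genes whose groups do not overlap was not counted. Here and elsewhere, a lack of overlap is therefore a description only. For *MYB15* the log2 fold change at 48 h cold was -0.01, with a wide 95% interval of -0.92 to 0.89. Lists of similar genes also lay below WT at 48 h cold, with 0 genes called. Of the 8 relatives of the ZAT genes, 0 values lay above 0 (median -0.68). Of the 15 other early stress factors and paralogs, 3 did (median -0.47). Among the CBF genes and targets 6 of 10 values lay above 0 (median 0.21), and the median over all genes was 0.

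The difference between the genotypes in the change from 11 DAP to 48 h cold was called by edgeR for 0 of the 9 genes and for 0.261% of all genes. The closest was *ZAT12*, with -0.56 ± 0.25 (unadjusted p = 0.045, adjusted p = 0.64, edgeR), the only 1 of the 9 with an unadjusted p under 0.05, and DESeq2 called 0 of them. For *ZAT6* it was 0.07 (95% interval -0.38 to 0.52). *CCA1* and *LHY* were lower in *myb107-2* at 11 DAP (-1.62 and -1.49, adjusted p = 0.024 and 0.011, edgeR), and their part in the genotype values at 11 DAP was not tested.

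For each gene, the other genes most like it were ranked by Pearson correlation of log2(CPM + 0.5) over the 18 libraries, among 17354 genes. These values are a description, since the libraries share groups and depth. *ZAT10* was most like *SRC2* (r = 0.967), *UCP5* and *ERF3*, and *ZAT12* was most like *NUDT21* (r = 0.975), AT3G52800 and *SRC2*, so that *SRC2* stood among the first 3 of both. *ZAT10* and *ZAT12* had r = 0.934 with each other and *ZAT10* had r = 0.856 with *CZF1*. *CZF1* was most like AT4G34150 (r = 0.957), *RIPK* and *SYP122*. *ZAT6* was most like *MTHFR2* (r = 0.941), *LAC12* and AT3G22620, and its r with *ZAT10* and *ZAT12* was 0.658 and 0.558. *RAV1* was most like AT5G53590 (r = 0.955), AT4G39230 and *ACLA-3*, and *MYB15* was most like AT4G24275 (r = 0.957), *PSK2* and *DMP2*. *HSFC1* was most like *RHA1* (r = 0.870), *PPC3* and *SYP21*, *CAMTA3* was most like *NRB4* (r = 0.908), *VHA-A3* and *GLU2*, and *HOS1* was most like *WSIP2* (r = 0.936), AT5G24710 and *PSKR1*.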

How the data were processed

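The authors trimmed the reads, aligned them with HISAT2, ran StringTie and deposited its estimated counts per gene, whole numbers that are not normalized, and their processing notes also name DESeq2. Tool versions, build and annotation are not given in the sources used here. The 26 other named loci listed beside the nuclear genes, of which 18 carry tags of the RefSeq TAIR10.1 annotation, were all found in that annotation, and gene positions were taken from it. In 5 files 22 genes carried dates where counts belonged and were dropped. Rows without a nuclear gene (median 0.948% of a library, at most 2.13%) stayed out of totals and tests. The other 37861 genes were used as deposited, as whole numbers without further rounding.

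TMM scaling was applied, and tests used edgeR 4.0.16 (quasi-likelihood, legacy estimation, no low-count filter) in R 4.3.3, in a fit of the 12 WT libraries (26245 genes) and a fit of the 12 libraries of both genotypes at 11 DAP and 48 h cold (26068 genes). A gene was called with a Benjamini-Hochberg adjusted p no larger than 0.05 and a log2 change of 1 or more in either direction, and the difference between genotypes the adjusted p alone. SE was obtained from the log2 change and the F statistic as |log2 change| / √F. On simulated data for 6 h cold against 11 DAP, with 200 changed genes among 25903, the legacy method called 166 genes with 6 false calls and the newer method 181 with 18, and the legacy method was chosen for this. It recovered 92 genes at a log2 change of 3 and 68 at 1.5. The simulated data were a single draw from the fitted model, and the other methods run on them are not reported here. Alternatives were DESeq2 1.42.0, RLE scaling, filterByExpr, a replicate block, all 18 libraries fitted together, calls without a fold change minimum, no ribosomal RNA unit genes and leaving out each library. The newer method and leaving out WT 6 h cold replicate 1 with WT 13 DAP replicate 1 were added after seeing the data.

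The 9 genes and the gene lists were chosen with earlier results of these data known. From the lists, at most 3 called genes with the smallest p per direction at 6 h cold against 11 DAP and at 48 h cold against 13 DAP were named, with the *CBF* genes. Same-numbered WT libraries at 13 DAP and 11 DAP deviated together (r = 0.266, 0.101 and 0.178), so that the numbers pair these groups by the limit of 0.1 alone, and the labels name no shared batch.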

Additional observations from a re-analysis of the deposited data

How the results depend on the processing

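Over the refits, in which the fold change minimum was kept, 1744 of 1764 values of the 9 genes stayed on their side of the threshold, 12 gained and 8 lost the call. The sign changed in 81 values, of 30 genes and comparisons, and 0 of these were called in either fit. Without a fold change minimum 6 further calls were made among the 9 genes, which gave 4 at 48 h cold against 11 DAP, 4 at 48 h cold against 13 DAP, 5 at 48 h against 6 h cold and 4 at 48 h cold against 11 DAP in *myb107-2*, and over all genes 587 were called at 6 h cold against 11 DAP, 2235 at 48 h cold against 11 DAP, 3028 at 48 h cold against 13 DAP, 4453 at 6 h cold against 13 DAP, 3882 at 13 DAP against 11 DAP, 1473 at 48 h against 6 h cold, 4336 at 48 h cold against 11 DAP in *myb107-2*, and 285 and 657 for *myb107-2* against WT at 11 DAP and at 48 h cold. The corresponding counts with the minimum were 284, 1224, 1746, 2617, 2365, 880, 1814, 178 and 381. DESeq2 called 617 genes at 6 h cold against 11 DAP, 1366 at 48 h against 6 h cold, 345 and 635 for *myb107-2* against WT at 11 DAP and at 48 h cold, and 378 for the difference between genotypes, against 68 with edgeR. Leaving out 1 library gave 136 to 338 genes at 6 h cold against 11 DAP, 568 to 956 at 48 h against 6 h cold, 95 to 252 for *myb107-2* against WT at 11 DAP, 21 to 116 for the difference between genotypes, and 0 to 1 of the 9 genes for *myb107-2* against WT at 48 h cold. With the replicate block, 2232 genes and 3 of the 9 were called at 13 DAP against 11 DAP, where the numbers pair the libraries, and 1139 genes and 3 of the 9 at 48 h cold against 11 DAP, and the block changed no call of the 9 genes. In the other comparisons at least 1 same-numbered pair had a correlation under 0.1, and the block moved the counts of called genes by less than 1.5 times. Why these counts differ between settings was not tested. *MYB15* had 0, 33 and 30 counts at 6 h cold, so that its fold changes there rest on few counts.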
